A study of Mus musculus with 16 samples.

Results

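Tumour cells enriched from LLC1 tumours of mice given TMP195 together with MYCi975 (Combo, 4 libraries) were set against those of mice given DMSO (Vehicle, 4 libraries), which takes in 8 of the 16 libraries of the study. The libraries were chosen by their labels alone. LLC1 is a mouse Lewis lung carcinoma line that is grown as a tumour in mice, MYCi975 is a small-molecule inhibitor of MYC, and TMP195 inhibits class IIa histone deacetylases (HDACs). All mice carried LLC1 tumours and were treated for 16 days. The other 8 libraries came from mice given MYCi975 alone or TMP195 alone, each at 50 mg/kg. The labels used here do not state the dose of each compound in the combination, the age, sex or strain of the mice, or the way tumour cells were enriched. They also do not say that each library is its own animal, so p-values measure only the spread between these libraries. Every group rests on the same single cell line.

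MYC pairs with MAX and binds E-box sequences at the promoters of genes for ribosome assembly, nucleotide synthesis, glycolysis, cell division and many mitochondrial proteins. The MXD and MNT proteins compete for MAX and repress the same sites. Class IIa HDACs (Hdac4, Hdac5, Hdac7 and Hdac9) have little enzyme activity of their own and repress genes by binding MEF2 transcription factors and bringing in the NCoR complex with its HDAC.

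Values are deposited variance-stabilised expression levels, close to log2, and every difference below is the Combo mean minus the Vehicle mean on that scale. The scale compresses weakly expressed genes, so their differences understate the fold change. Of 24334 genes, 15715 were tested, namely those whose level exceeded the lowest one, 4.84, by 1 or more in 4 or more of the 16 libraries. The number of genes at the lowest value ran from 1960 to 3130 over the 8 libraries, and the total counts per library are unknown. Rank correlations were 0.974 to 0.988 within groups and 0.972 to 0.988 between them. On the first principal component of all 16 libraries (21.2% of the variance) the library numbered 4 had the highest score of its group in all 4 groups, at 33.2 in Vehicle, 32.0 in TMP195, 26.6 in MYCi975 and 5.32 in Combo, and the library numbered 1 the lowest, between -19.5 and -13.7. In each of the 4 groups the scores rose in the order of the numbers, from 1 to 4. The labels used here do not say what the numbers stand for. Vehicle replicate 4 also held the most genes at the lowest value of the 16 libraries. Where leaving out a single library moved a difference or median named below by over 1.5 times, the largest such moves stand beside it.

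No gene passed an adjusted p of 0.05 (limma, 0% of the genes tested), and the smallest adjusted p was 0.987. The unadjusted p was under 0.05 in 642 genes (4.09%, where 5% is the nominal share), 341 of them higher in Combo (2.17%) and 301 lower (1.92%). With median centring of the libraries this split was 456 to 193. With the replicate number as a block in the fit, 878 of the 15715 genes were under that p, more than the nominal 5%, with 414 higher and 464 lower. Unless another setting is named, the SEs, p-values and intervals below come from the fit without that block. In 281 genes (1.79%) all 4 Combo values lay above all 4 Vehicle values, and in 240 genes (1.53%) all lay below. A difference over 1 was seen in 29 genes. The median standard error (SE) of a difference was 0.157, which gives a 95% confidence interval of 0.332 on either side. Some genes below have intervals that leave out 0 before adjustment, but none passed the test after it, and each is described by its values.

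Of the genes lower in Combo without overlap of the groups, 9 are named here by the smallest p. Ddx21 (ENSMUSG00000020075.9), a nucleolar RNA helicase that takes part in making ribosomal RNA, had values of 12.77, 12.85, 12.84 and 12.94 in Vehicle and 12.62, 12.56, 12.35 and 12.48 in Combo. It was lower by 0.35 (difference -0.35, SE 0.09), with every Combo library below every Vehicle library. Nop56 (ENSMUSG00000027405.17), a core protein of the particles that methylate ribosomal RNA, had 12.39, 12.85, 12.44 and 12.66 in Vehicle and 12.27, 12.20, 12.10 and 12.26 in Combo (difference -0.38, SE 0.11). The groups stood apart by the small gap between Vehicle replicate 1 and Combo replicate 1. Mrps18b, a protein of the small mitochondrial ribosomal subunit, had 9.37, 9.52, 9.27 and 9.64 in Vehicle and 9.01, 9.20, 9.12 and 9.05 in Combo (-0.36, SE 0.10). Nepro, another nucleolar protein gene, differed by -0.38 (SE 0.11).

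Cks2, which encodes a small subunit of cyclin-dependent kinase complexes, had values of 8.57, 8.83, 8.44 and 8.65 in Vehicle and 8.34, 7.90, 8.18 and 7.96 in Combo (-0.53, SE 0.15). Mcmbp, whose product binds the MCM helicase of DNA replication, had the tightest groups of these genes, at 11.22, 11.31, 11.14 and 11.22 in Vehicle and 10.97, 10.91, 10.97 and 10.91 in Combo (-0.28, SE 0.08). Faap24, of the Fanconi anaemia DNA repair complex, differed by -0.46 (SE 0.13). Lgals3, which encodes the sugar-binding protein galectin-3, differed by -0.52 (SE 0.15), and Ksr2, a scaffold of MAP kinase signalling, by -0.68 (SE 0.20). In Ksr2 Vehicle replicate 4 (7.28) lay far above the other 3 Vehicle libraries (6.41 to 6.55).

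Among named genes that were higher in Combo without overlap, Pik3r1 (ENSMUSG00000041417.16), a regulatory subunit of class I phosphoinositide kinases, had the smallest p. It had 12.06, 12.08, 11.89 and 12.002 in Vehicle and 12.58, 13.09, 12.49 and 12.43 in Combo (0.64, SE 0.16), with Combo replicate 2 the highest. Zbtb20 (ENSMUSG00000022708.17), a zinc finger transcription factor, had 11.32, 11.60, 11.24 and 11.52 in Vehicle and 11.90, 12.15, 12.18 and 11.99 in Combo (0.64, SE 0.17), and its groups did not overlap. Nr4a3 (ENSMUSG00000028341.10), an orphan nuclear receptor that is induced rapidly by many stimuli, differed most of these genes, at 1.67 (SE 0.50). Its Vehicle values were 6.04, 6.83, 5.68 and 6.18 and its Combo values 7.22, 7.83, 6.87 and 9.49. Combo replicate 4 was the highest and Combo replicate 3 lay barely above Vehicle replicate 2.

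The other 6 were Nova1, a splicing factor known from neurons (0.78, SE 0.24, and 0.48 without Combo replicate 3), Rnf182, a ubiquitin ligase (0.65, SE 0.19), Focad (0.40, SE 0.12), Wdr7 (0.32, SE 0.09), Pcdhb22 (0.37, SE 0.11) and Pcdhb21 (0.34, SE 0.10). All 4 Vehicle values of Nova1 (5.07 to 5.53) and of Rnf182 (5.26 to 5.80) lay less than 1 above the lowest value, 4.84. No Vehicle library thus helped either gene pass the filter, whereas all 4 Combo values of Rnf182 (5.91 to 6.63) did. Pcdhb22 and Pcdhb21 belong to the clustered protocadherins, cell adhesion proteins encoded by tandem copies whose reads can be shared between copies. Named after their values were seen, 9 of 10 tested Pcdhb genes were higher in Combo (median difference 0.27, 5 of them at an unadjusted p under 0.05), and so were 20 of 22 Pcdhg genes (median 0.19, none at that p). Of all tested genes 2.17% were higher at that p. The Pcdhg genes share their last exons, so their values are not independent of each other. Of the Nr4a family, Nr4a1 had 8.02, 7.86, 7.68 and 7.58 in Vehicle and 8.20, 8.75, 7.44 and 9.21 in Combo (0.61, SE 0.39), and Nr4a2 differed by 0.57 (SE 0.26), both with overlap of the groups. Without Combo replicate 4 these were 0.34 and 0.34, and Nr4a1 was at 0.93 without Combo replicate 3. In contrast, 25 immediate early genes as a list had a median of -0.16, with 16 lower. That median was 0.0442 without Vehicle replicate 4 and -0.283 without Vehicle replicate 2, and each of 5 other single libraries also moved it by over 1.5 times.

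**Figure D1:**
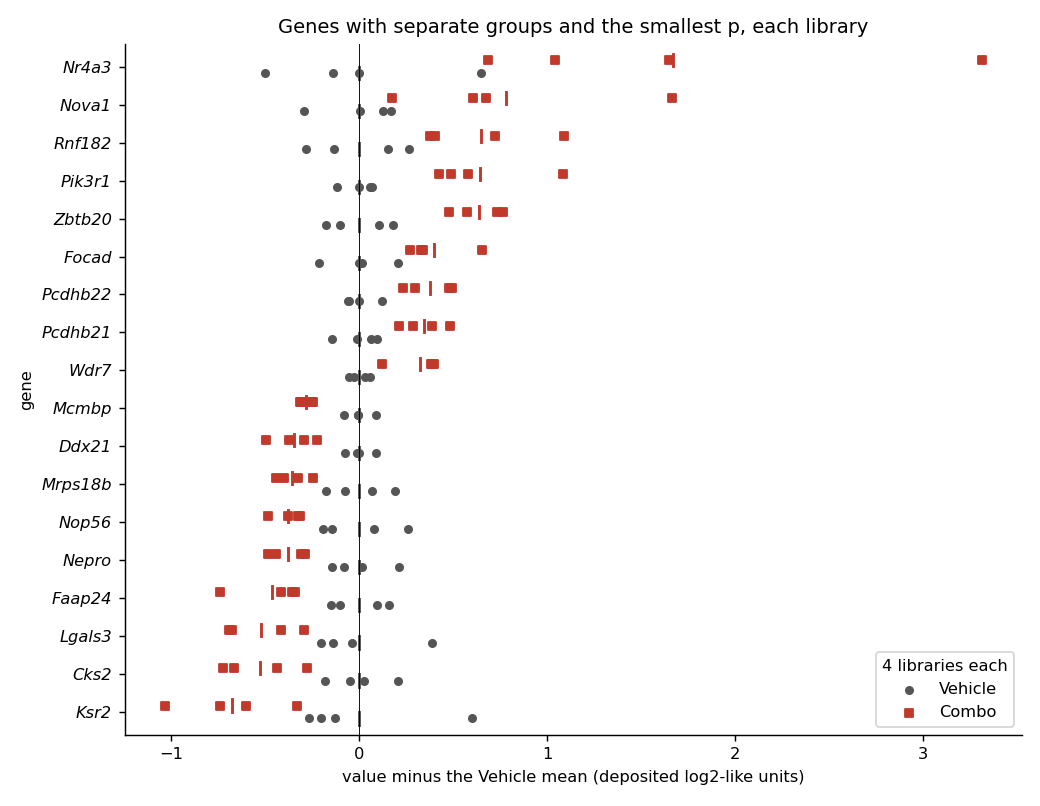
Each point is 1 library of a gene, as its deposited value minus the mean of the 4 Vehicle libraries (horizontal axis, log2-like units), with Vehicle as grey circles, Combo as red squares and group means as short bars. These are the 9 genes named in each direction, chosen by the smallest p among those whose groups do not overlap; the spread is widest for Nr4a3, whose Combo values run from 6.87 to 9.49.

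For the genes of the drug targets themselves, no difference passed the test. Myc (ENSMUSG00000022346.18) had values of 12.06, 11.77, 11.71 and 11.46 in Vehicle and 12.17, 11.07, 11.22 and 11.56 in Combo (-0.24, SE 0.21). Combo replicate 1 had the highest value of the 8 libraries, and the groups overlapped. The difference was -0.46 without it, -0.0968 without Combo replicate 2, -0.148 without Combo replicate 3 and -0.139 without Vehicle replicate 1, so neither a lower level nor an equal one was shown. Max differed by -0.01 (SE 0.12), a sign that turned with the scaling (0.0449 with quantile normalisation and 0.0215 with median centring) and with single libraries left out (-0.0843 without Vehicle replicate 4 and 0.0531 without Combo replicate 2). Of 11 tested genes for MYC network proteins 9 were lower, with a median of -0.0767 (-0.128 without Combo replicate 1 and -0.0225 without Vehicle replicate 2). The 1 member at an unadjusted p under 0.05 was Mxd4, a repressor that pairs with MAX, which was higher by 0.35 (SE 0.13). Mxd4 had 10.72, 10.54, 10.73 and 10.49 in Vehicle and 10.63, 10.89, 11.23 and 11.12 in Combo, so that only Combo replicate 1 lay within the Vehicle range.

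Of the class IIa HDACs, Hdac4 differed by -0.12 (SE 0.13), Hdac5 by -0.05 (SE 0.16), Hdac7 by -0.03 (SE 0.13) and Hdac9 by 0.19 (SE 0.14). Hdac9 had 6.15, 6.02, 6.05 and 6.02 in Vehicle and 6.45, 5.86, 6.18 and 6.52 in Combo, and Combo replicate 2 was the lowest of the 8 libraries. With quantile normalisation Hdac7 was at 0.00721. Hdac4 was at -0.0488 without Vehicle replicate 4 and -0.186 without Combo replicate 1, and Hdac9 at 0.324 without Combo replicate 2 and 0.103 without Combo replicate 4. Hdac5 and Hdac7 turned sign when single libraries were left out, Hdac5 at 0.0714 without Vehicle replicate 3 and Hdac7 at 0.0120 without Combo replicate 1. The 7 tested class IIa HDAC and MEF2 genes had a median of -0.0338 with 4 lower, a sign that turned with quantile normalisation (0.00721) and without Combo replicate 1 (0.0120), Vehicle replicate 2 (0.000389) or Vehicle replicate 3 (0.0714). Without Combo replicate 4 it was -0.0816. Mef2a differed by 0.18 (SE 0.13, and 0.0856 without Vehicle replicate 4) and Mef2c by -0.22 (SE 0.40, between -0.446 without Combo replicate 4 and -0.00665 without Vehicle replicate 2).

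Gene lists were then described by counts and medians, for which the background is not an even split. Over all tested genes 52.6% were lower in Combo, with a median of -0.0098. Over the 12392 tested protein-coding genes 57.5% were lower (median -0.0288). Among coding genes with a Vehicle mean of at least 10 the share was 64.1% (median -0.0436), and among those of them that span under 20 kb it was 76.5% (median -0.0883). Of 34 pathway lists 31 had a median below 0. The library means of 3 lists did not overlap between the groups: MYC targets, mitochondrial DNA and RNA maintenance, and the integrated stress response. When each of the 8 libraries was left out in turn, the medians of MYC targets (-0.200 to -0.143), ribosome biogenesis (-0.174 to -0.0965), mitochondrial DNA and RNA maintenance (-0.140 to -0.102), mitochondrial ribosomal proteins (-0.143 to -0.0702) and mitosis (-0.245 to -0.114) moved by less than 1.5 times.

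Genes of the MYC target list and of ribosome assembly had lower values in Combo. Of 59 tested MYC targets 55 were lower (median -0.16), and none was higher at an unadjusted p under 0.05. At that p 10 were lower (16.9%, against 1.92% of all tested genes), and 9 were lower without overlap (15.3%, against 1.53%). Among the short, highly expressed coding genes above these shares were 3.19% and 2.66%. The list, like the other lists, was chosen with earlier results of these data known, so these shares describe it and test nothing. The list means of the Vehicle libraries were 11.04, 11.05, 11.001 and 11.10 and those of Combo 10.98, 10.77, 10.84 and 10.88. All Combo means were below all Vehicle means, and Combo replicate 1 was the nearest to Vehicle. Supv3l1 (ENSMUSG00000020079.16), a mitochondrial RNA helicase that is also on the list of mitochondrial RNA maintenance, had 9.52, 9.58, 9.78 and 9.59 in Vehicle and 9.35, 9.13, 9.05 and 9.35 in Combo (-0.40, SE 0.12). The values of Rrp12, a factor in the export and processing of small ribosomal subunits, were 10.48, 10.61, 10.63 and 10.68 in Vehicle and 10.35, 10.32, 10.30 and 10.32 in Combo (-0.28, SE 0.09). In Rrp12 the Combo libraries lay close together, below all Vehicle libraries. Rcl1 differed by -0.34 (SE 0.11), Tmem97 by -0.33 (SE 0.12), Ppan by -0.38 (SE 0.13) and Dkc1, the pseudouridine synthase of ribosomal RNA, by -0.42 (SE 0.16, and -0.257 without Vehicle replicate 4).

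Of 63 ribosome biogenesis genes, none of which is also on the MYC target list, 56 were lower (median -0.13). The MYC target list itself holds ribosome assembly factors, among them Nop56, Rrp12 and Dkc1. The lists thus differ in members but not in function, and their values are not independent results. At an unadjusted p under 0.05, 7 of the 63 were lower (11.1%, against 1.92% of all tested genes). Utp4 (ENSMUSG00000041438.9), of the complex that processes small subunit RNA, had 10.81, 10.98, 10.91 and 10.98 in Vehicle and 10.62, 10.44, 10.57 and 10.62 in Combo (-0.36, SE 0.11), without overlap. Utp14a, of the same complex, differed by -0.32 (SE 0.12), also without overlap. The list mean of Combo replicate 1 (10.63) lay within the Vehicle range (10.58 to 10.68), whereas the other 3 Combo libraries lay between 10.45 and 10.48. Of 77 cytosolic ribosomal protein genes 66 were lower (median -0.12, -0.190 without Vehicle replicate 3 and -0.0538 without Vehicle replicate 4). Of the 77, 4 were lower at an unadjusted p under 0.05, beside 1.92% of all tested genes. Rpl12 had 11.23, 11.06, 11.24 and 11.30 in Vehicle and 10.97, 10.90, 10.96 and 11.002 in Combo (-0.25, SE 0.08), and Rpl15 differed by -0.31 (SE 0.13, and -0.182 without the libraries numbered 4). Ribosomal protein genes have many processed copies, so reads of single members may have been split.

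The E-box CACGTG, which reads the same on both strands, was counted in the RefSeq promoter windows of the GRCm38.p6 assembly, which run from 250 bases before to 50 bases after a gene's start. It lay in 15 of the 53 MYC target promoters found there (28.3%) and in 9 of 56 ribosome biogenesis promoters (16.1%). Over all 27025 gene symbols with a window, tested or not, the share was 7.24%. Only the first window listed for a symbol was searched, and 9989 windows share their symbol with another. Among the 9695 tested coding genes found in the table the E-box lay in 10.1%. These are only 78.2% of the tested coding genes, so their share describes the genes found and does not stand for all tested coding genes. In the 250 bases before the start alone, the shares were 15.1% for MYC targets, 8.93% for ribosome biogenesis and 8.32% for those 9695 genes, so in that window ribosome biogenesis lay close to the coding genes found. MYC targets with an E-box had a median difference of -0.16 and those without one -0.17. The windows searched for Ddx21, Nop56 and Supv3l1 hold no match. The sequences below show the 4 genes with the smallest p among both lists that have the E-box before the start, and Cdk4, which has 4 such boxes and a difference of only -0.03 (SE 0.15). They lie at chr6:125131763-125131882 on the plus strand (Nop2), chr11:107189382-107189501 on the minus strand (Nol11), chr7:46845602-46845775 plus (Ldha), chr1:34439651-34439770 plus (Imp4) and chr10:127063306-127063534 plus (Cdk4). Each is written 5′ to 3′ on the strand of its gene, with the E-box in capitals.
Nop2: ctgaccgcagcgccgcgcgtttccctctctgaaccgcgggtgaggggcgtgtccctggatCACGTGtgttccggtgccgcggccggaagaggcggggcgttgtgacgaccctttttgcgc
Nol11: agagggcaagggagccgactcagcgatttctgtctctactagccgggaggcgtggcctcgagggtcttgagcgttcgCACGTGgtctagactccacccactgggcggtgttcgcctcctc
Ldha: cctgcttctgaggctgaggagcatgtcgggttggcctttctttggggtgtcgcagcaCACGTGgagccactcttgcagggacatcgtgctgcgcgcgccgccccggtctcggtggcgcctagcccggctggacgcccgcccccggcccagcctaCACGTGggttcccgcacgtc
Imp4: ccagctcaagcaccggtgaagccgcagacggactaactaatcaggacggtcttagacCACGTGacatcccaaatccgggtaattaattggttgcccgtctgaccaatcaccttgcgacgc
Cdk4: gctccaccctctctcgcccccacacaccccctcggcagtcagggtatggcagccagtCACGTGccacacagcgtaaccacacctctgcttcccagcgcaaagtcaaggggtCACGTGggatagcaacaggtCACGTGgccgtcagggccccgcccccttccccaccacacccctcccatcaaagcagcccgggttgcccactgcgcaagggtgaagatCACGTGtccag
In Nop2 the box begins 60 bases before the start, in Nol11 43, in Imp4 121, in Ldha 145 and 48, and in Cdk4 172, 118, 98 and 11. Nop2, an RNA methyltransferase of the large ribosomal subunit, had 11.14, 11.32, 11.36 and 11.19 in Vehicle and 11.22, 10.99, 11.07 and 10.78 in Combo (-0.24, SE 0.12). Combo replicate 1 lay within the Vehicle range, and the other 3 below it. Nol11, of the small subunit processome, differed by -0.19 (SE 0.12), Imp4 by -0.15 (SE 0.11) and Ldha, lactate dehydrogenase, by -0.21 (SE 0.13). Cdk4, a kinase that starts the cell cycle, had 11.63, 11.93, 11.61 and 11.11 in Vehicle and 11.57, 11.39, 11.63 and 11.55 in Combo, and Vehicle replicate 4 was its lowest library. With quantile normalisation its difference was 0.00418, without Vehicle replicate 4 it was -0.189 and without Vehicle replicate 2 it was 0.0853.

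**Figure D2:**
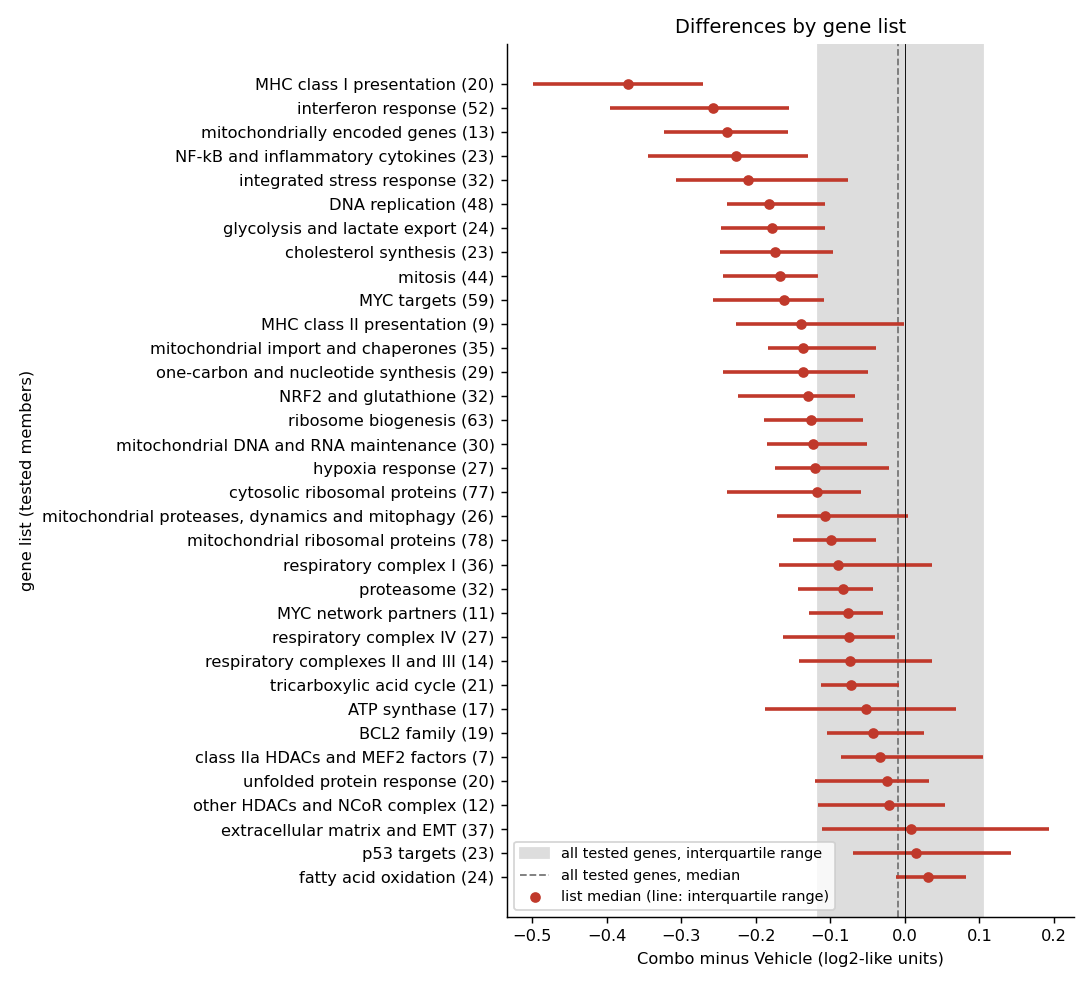
Each point is the median over the tested members of a pathway list of Combo minus Vehicle (horizontal axis, log2-like units), with a line over the interquartile range of the members and the number of tested members in brackets. The grey band and dashed line give the interquartile range and the median (-0.0098) of all tested genes; 31 of 34 lists have a median below 0.

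Mitochondrial lists had medians below 0 except fatty acid oxidation, and their distance from the background depended on which coding genes were taken for it. Over the 308 tested nuclear genes of 10 mitochondrial lists 224 were lower (72.7%, median -0.0781), 9 of them at an unadjusted p under 0.05 (2.92%). Among the coding genes with a Vehicle mean of at least 10 and a span under 20 kb given above, 76.5% were lower (median -0.0883) and 3.19% were lower at that p. Most of the 10 lists had a mean level under 10 in Vehicle, such as 8.91 for mitochondrial ribosomal proteins and 8.95 for complex I. That set of coding genes is thus not matched to them in level. Of all tested coding genes 57.5% were lower (median -0.0288), 2.18% at that p. Of those spanning 5 to 20 kb 62.3% were lower (median -0.0485). Genes that maintain mitochondrial DNA and RNA were lower in 26 of 30 cases (median -0.12). Their list means were 9.49, 9.56, 9.48 and 9.57 in Vehicle and 9.40, 9.42, 9.41 and 9.38 in Combo, with all Combo libraries below all Vehicle libraries. At an unadjusted p under 0.05, 1 of the 30 was lower, beside 1.92% of all tested genes. That gene, Supv3l1, is also on the MYC target list, as are Tfb2m and Pprc1. Of the mitochondrial ribosomal protein genes 63 of 78 were lower (median -0.0987), 5 at an unadjusted p under 0.05, beside 1.92% of all tested genes. Mrpl4 had 8.83, 9.06, 8.76 and 8.87 in Vehicle and 8.56, 8.55, 8.45 and 8.60 in Combo (-0.34, SE 0.13), with no overlap.

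Import and chaperone genes were lower in 27 of 35 cases (median -0.14, and -0.0810 without Vehicle replicate 4). Timm23, the channel of the inner membrane, had 10.22, 10.58, 10.20 and 10.66 in Vehicle and 10.01, 10.15, 10.20 and 10.04 in Combo (-0.31, SE 0.12). Its values met at Vehicle replicate 3 and Combo replicate 3. Proteases, dynamics and mitophagy were lower in 19 of 26 genes (median -0.11, and -0.0518 without Vehicle replicate 4). Of the tricarboxylic acid cycle 16 of 21 genes were lower (median -0.0717, and -0.126 without Vehicle replicate 3), and Idh3g, a subunit of isocitrate dehydrogenase, had 10.13, 10.55, 10.44 and 10.55 in Vehicle and 9.98, 10.09, 10.15 and 9.90 in Combo (-0.39, SE 0.11). Combo replicate 3 lay just above Vehicle replicate 1 in Idh3g. Fatty acid oxidation genes, in contrast, had 7 of 24 members lower and a median of 0.0314 (0.0117 without Vehicle replicate 3 and 0.0674 without Vehicle replicate 2).

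The nuclear genes of the respiratory chain and ATP synthase had medians of -0.0901 for complex I (24 of 36 lower), -0.0740 for complexes II and III (8 of 14), -0.0747 for complex IV (22 of 27) and -0.0521 for ATP synthase (12 of 17). These lie near the medians of the more highly expressed coding genes given above (-0.0436 and -0.0883) and below that of all coding genes (-0.0288). The mean level in Vehicle was 8.95 for complex I, 9.15 for complex IV, 9.71 for ATP synthase and 10.06 for complexes II and III. Only the last list thus reached the level of 10 used for that comparison. For complex I the median was -0.00911 without Combo replicate 2, -0.0246 without Vehicle replicate 4 and -0.136 without Vehicle replicate 3. ATP synthase ran from -0.0310 without Combo replicate 2 to -0.119 without Combo replicate 4, complex IV was at -0.0388 without Combo replicate 2 and -0.0394 without Vehicle replicate 1, and complexes II and III were at -0.0458 without Vehicle replicate 2. Cox18, which helps insert a subunit of complex IV, differed by -0.34 (SE 0.15), and Cycs, cytochrome c, by -0.25 (SE 0.12, and -0.153 without Vehicle replicate 4). In Cycs Vehicle replicate 4 (11.72) was the highest and Combo replicate 1 (11.46) lay above the other 3 Vehicle libraries.

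Of the 13 protein genes of mitochondrial DNA itself 11 were lower (median -0.24), none at an unadjusted p under 0.05. The list means were 13.35, 13.09, 13.76 and 12.73 in Vehicle and 13.22, 13.16, 12.79 and 12.97 in Combo, so Vehicle alone spanned more than the difference. mt-Nd1, of complex I, had 14.41, 14.04, 14.44 and 14.23 in Vehicle and 14.05, 13.93, 13.83 and 13.69 in Combo (-0.41, SE 0.20). mt-Atp6, of ATP synthase, had 13.34, 13.29, 13.68 and 13.50 in Vehicle and 13.48, 13.09, 12.22 and 12.39 in Combo (-0.66, SE 0.32), with Combo replicates 3 and 4 low. The exceptions were mt-Nd6 (0.52, SE 0.61) and mt-Nd3 (0.0875, SE 0.51). In mt-Nd6, which is encoded on the strand opposite to the other protein genes, Vehicle replicate 4 was at 10.13 against 11.93 to 13.41 in the other 3 Vehicle libraries and 12.29 to 12.54 in Combo. Without Vehicle replicate 4 all 13 genes were lower, with a median of -0.37, mt-Nd6 at -0.0863 and mt-Nd3 at -0.37. Without Vehicle replicate 3, the highest library, the median was -0.0903. Nuclear copies of mitochondrial sequence may take reads of these genes.

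Lists of biosynthesis, sugar use and stress responses had medians below 0 as well, some of them near the background. Among the short, highly expressed coding genes above 76.5% were lower. Beside this stood 79.2% for glycolysis, 77.8% for hypoxia response and 60.0% for the unfolded protein response. The integrated stress response and the NRF2 list were each at 87.5%. In one-carbon and nucleotide synthesis 25 of 29 genes were lower (median -0.14). Mthfd1l, of mitochondrial folate metabolism, had 11.42, 11.59, 11.54 and 12.46 in Vehicle and 11.28, 11.29, 11.15 and 11.28 in Combo (-0.50, SE 0.18), without overlap of the groups, and differed by -0.266 without Vehicle replicate 4. Ctps, of cytidine nucleotide synthesis, differed by -0.43 (SE 0.20, and -0.270 without Combo replicate 2). In glycolysis and lactate export 19 of 24 genes were lower (median -0.18, and -0.111 without Combo replicate 2). Pdk1, which restrains the entry of pyruvate into mitochondria, had 11.30, 11.50, 11.48 and 11.57 in Vehicle and 11.08, 11.08, 11.01 and 10.95 in Combo (-0.44, SE 0.19). The glycolytic mutase gene Pgam1 had 14.02, 14.22, 14.14 and 14.08 in Vehicle and 13.89, 13.78, 13.76 and 13.82 in Combo (-0.30, SE 0.12). The lactate exporter gene Slc16a3 differed by -0.45 (SE 0.19), and the groups of Pdk1 and Pgam1 stood apart.

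The integrated stress response, a programme that restores amino acid supply, was lower in 28 of 32 genes (median -0.21). Its library means were 10.12, 10.36, 10.19 and 10.17 in Vehicle and 10.11, 9.94, 9.92 and 10.07 in Combo, which did not overlap, although Combo replicate 1 and Vehicle replicate 1 nearly touched. The median was -0.121 without Vehicle replicate 2, the highest library. Trib3, a pseudokinase induced in this response, had 7.31, 8.35, 7.43 and 7.84 in Vehicle and 7.42, 7.12, 7.07 and 7.31 in Combo (-0.50, SE 0.20, and -0.295 without Vehicle replicate 2). Aldh18a1, of proline synthesis, differed by -0.32 (SE 0.13), Eif4ebp1, a repressor of translation, by -0.29 (SE 0.13), and Shmt2, of serine and glycine metabolism, by -0.28 (SE 0.14, and -0.106 without Vehicle replicate 2). The unfolded protein response had 12 of 20 genes lower and a median of -0.0241, which ran from -0.0990 without Combo replicate 1 to 0.00918 without Vehicle replicate 1 and turned sign with quantile normalisation (0.0149) and median centring (0.00411).

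NRF2 and glutathione genes were lower in 28 of 32 cases (median -0.13, and -0.0739 without Combo replicate 2), among them Txnrd1, thioredoxin reductase (-0.31, SE 0.11), and Gclc, of glutathione synthesis (-0.27, SE 0.11). Of 27 hypoxia response genes 21 were lower (median -0.12), and leaving out Vehicle replicate 4 gave -0.194 and Vehicle replicate 3 -0.0449. Among genes of cholesterol synthesis 20 of 23 were lower (median -0.17), with Hsd17b7 at -0.34 (SE 0.15), and the median of the list was -0.293 without Vehicle replicate 3 and -0.0626 without Vehicle replicate 4. Proteasome genes were lower in 29 of 32 cases (median -0.0826), with medians of -0.0230 without Combo replicate 2, -0.0296 without Vehicle replicate 4, -0.130 without Combo replicate 1 and -0.133 without Vehicle replicate 3. The Vehicle list means of cholesterol synthesis alone spanned 10.09 in replicate 3 to 10.68 in replicate 4. At an unadjusted p under 0.05, 1 of 27 hypoxia, 1 of 23 cholesterol and 1 of 32 proteasome genes were lower. Among short, highly expressed coding genes 3.19% were.

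Cell division genes were lower in nearly all cases, with overlap between libraries. Of 48 DNA replication genes 43 were lower (median -0.18), and of 44 mitosis genes 43 (median -0.17). For DNA replication the list means were 10.004, 10.19, 9.97 and 10.41 in Vehicle and 9.99, 9.90, 10.02 and 10.02 in Combo. Vehicle replicates 1 and 3 lay within the Combo range, and without Vehicle replicate 4 the median was -0.0871. Cdc25a, a phosphatase that activates cyclin-dependent kinases, had 9.71, 9.95, 9.72 and 9.74 in Vehicle and 9.53, 9.51, 9.45 and 9.45 in Combo (-0.30, SE 0.11), without overlap. Pola2, of the polymerase that starts DNA strands, differed by -0.26 (SE 0.11), Cdca5, of sister chromatid cohesion, by -0.37 (SE 0.15), and the mitotic kinase gene Aurkb by -0.34 (SE 0.15, and -0.224 without Vehicle replicate 4). Replication-dependent histones, whose messages lack a poly(A) tail and have near-identical copies, were lower in 35 of 37 cases (median -0.24, -0.151 without Vehicle replicate 2 and -0.153 without Vehicle replicate 4), for example Hist1h2bb (-0.48, SE 0.19). Genes of the p53 response (median 0.0146, 10 of 23 lower) and the BCL2 family (median -0.0422, 11 of 19 lower) had medians near that of all genes. Both turned sign when single libraries were left out, from -0.0431 without Vehicle replicate 2 to 0.0870 without Vehicle replicate 3 for p53 and from -0.0891 without Combo replicate 1 to 0.0301 without Vehicle replicate 1 for BCL2.

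**Figure D3:**
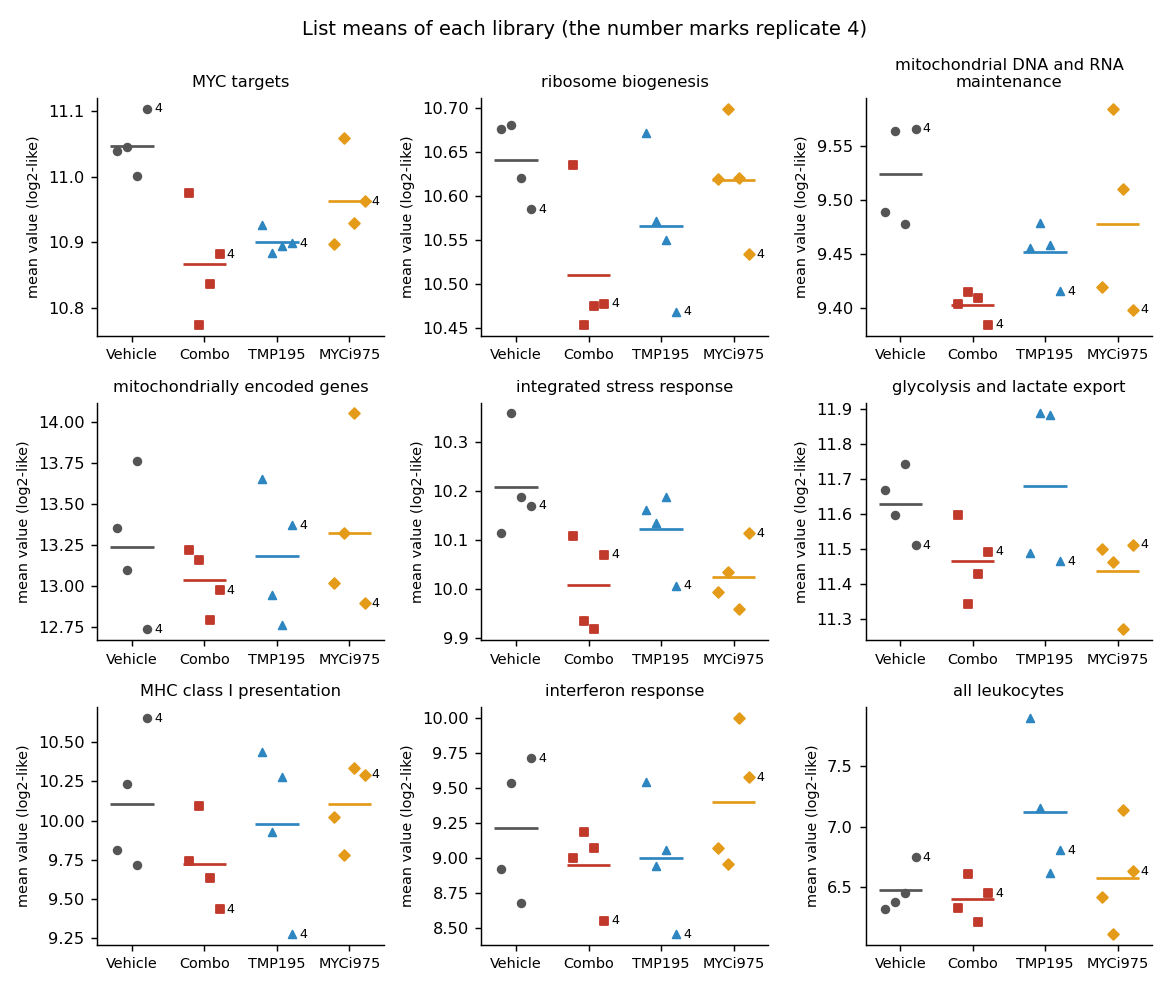
Each panel gives the mean value over the tested members of a gene list (vertical axis, log2-like units) in every library, with a bar for the group mean and the digit beside replicate 4 of each group. The Combo and Vehicle libraries stand apart for MYC targets, mitochondrial DNA and RNA maintenance and the integrated stress response, while for MHC class I presentation Vehicle replicate 4 (10.65) is the highest and Combo replicate 4 (9.43) the lowest of the 8 libraries.

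MHC class I and interferon response genes had the lowest medians of the 34 pathway lists, but the size of both rested on the libraries numbered 4. For interferon response genes the direction did too. MHC class I presentation, which shows peptides to cytotoxic T cells, was lower in 20 of 20 genes (median -0.37), 1 of them at an unadjusted p under 0.05. Its list means were 9.81, 10.23, 9.72 and 10.65 in Vehicle and 9.74, 10.09, 9.64 and 9.43 in Combo. Without Vehicle replicate 4 the median was -0.17, with 19 of the 20 lower. Without all libraries numbered 4 it was -0.0603, with 18 lower. Nlrc5, the activator of class I genes, had 10.14, 11.02, 10.69 and 11.38 in Vehicle and 10.13, 10.75, 9.69 and 9.58 in Combo (-0.77, SE 0.36). H2-K1, a classical class I gene with near-identical relatives, had 11.03, 11.24, 10.93 and 12.11 in Vehicle and 10.92, 11.42, 10.42 and 10.36 in Combo (-0.55, SE 0.31). In both genes the groups overlapped, with Vehicle replicate 4 the highest and Combo replicate 4 the lowest of the 8 libraries. H2-K1 differed by -0.286 without Vehicle replicate 4 and by -0.145 without all libraries numbered 4, and Nlrc5 by -0.428 without all libraries numbered 4. Tapbpl, a peptide editor, differed by -0.40 (SE 0.19), and by -0.179 without Vehicle replicate 4.

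Of 52 interferon response genes 48 were lower (median -0.26), none at an unadjusted p under 0.05. The median was -0.464 without Vehicle replicate 3, -0.150 without Combo replicate 4 and -0.0822 without Vehicle replicate 4. Without all libraries numbered 4, 17 of the 52 were lower and the median was 0.0195. Irf1, a transcription factor induced by interferon, had 11.15, 11.52, 11.21 and 12.81 in Vehicle and 11.32, 11.39, 10.91 and 10.76 in Combo (-0.58, SE 0.33). Without Vehicle replicate 4 the Irf1 difference was -0.197, and without all libraries numbered 4 it was -0.0858. Bst2, a restriction factor, differed by -0.44 (SE 0.25), and by -0.155 without Vehicle replicate 4. MHC class II presentation had 7 of 9 genes lower (median -0.14), with a median between -0.217 and -0.0168 when 1 library was left out and of 0.0734 without the libraries numbered 4. The 23 genes of NF-kB and inflammatory cytokines had a median of -0.23, with 19 lower, -0.21 without the libraries numbered 4 and -0.396 without Combo replicate 1, the highest library. Vcam1, an adhesion molecule of this list, had 11.80, 12.28, 11.51 and 12.55 in Vehicle and 11.56, 11.43, 11.56 and 11.80 in Combo (-0.45, SE 0.20, and -0.277 without Vehicle replicate 4).

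Markers of other cells were set beside these lists, since in bulk RNA fewer cells of a type and less RNA per cell cannot be told apart. Of 12 markers of all leukocytes 9 were tested, and 7 were lower (median -0.11). Their list means were 6.32 to 6.75 in the Vehicle libraries and 6.21 to 6.61 in those of Combo, and no marker was at the lowest value in all 8 libraries. Ptprc, the common leukocyte marker, had 6.66, 7.10, 6.39 and 7.52 in Vehicle and 6.64, 7.06, 5.81 and 7.10 in Combo (-0.27, SE 0.43), and differed by -0.0655 without Vehicle replicate 4, 0.0162 without Combo replicate 3 and -0.443 without Vehicle replicate 3. Vehicle replicate 4 was the highest in this list as in the class I list, and without it the leukocyte median was 0.0172. Leaving out Combo replicate 1, 3 or 4 or Vehicle replicate 3 gave leukocyte medians of -0.0599 to -0.0161. Macrophage and monocyte markers (10 of 16 tested) had a median of 0.0702, with means of 6.26 to 6.86 in Vehicle and 6.28 to 6.64 in Combo. That median turned sign without Combo replicate 2 (-0.0777), without Vehicle replicate 1 (-0.0627) and with a stricter filter (-0.0614), and was 0.194 without Vehicle replicate 4. Neutrophil markers (7 of 12 tested) had a median of -0.15, with means of 6.40 to 6.85 in Vehicle and 6.22 to 6.75 in Combo, and the median was -0.0604 without Combo replicate 3, -0.0713 without Combo replicate 4 and -0.0918 without Vehicle replicate 4. The part of leukocytes in the class I, interferon and NF-kB values was not tested.

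Of 14 T and NK cell markers 2 were tested, of 8 B cell markers 2, of 9 dendritic cell markers 5 and of 12 endothelial markers 5. Fibroblast markers (10 of 12 tested) had a median of 0.34, with 3 of the 10 lower. Their list means were 10.73 to 11.02 in Vehicle and 10.88 to 11.34 in Combo. The median was 0.17 without Vehicle replicate 4 and 0.218 without Combo replicate 3. The 2 members at an unadjusted p under 0.05, both higher, follow (2.17% of all tested genes were higher at that p). Pdgfra, a growth factor receptor of mesenchymal cells, had 12.88, 12.37, 12.65 and 12.84 in Vehicle and 12.80, 13.24, 13.21 and 12.94 in Combo (0.36, SE 0.15). Col3a1, a fibrillar collagen, had 16.83, 16.40, 16.41 and 15.92 in Vehicle and 16.39, 17.11, 17.15 and 16.86 in Combo (0.49, SE 0.21). In both genes Combo replicate 1 lay within the Vehicle range.

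Of 37 extracellular matrix genes 17 were lower (median 0.00876, between -0.00943 without Vehicle replicate 4 and 0.0490 without Vehicle replicate 1), but the 4 members at an unadjusted p under 0.05 were all higher: Col5a2 (0.68, SE 0.27), Col3a1, Mmp14 (0.27, SE 0.11) and Tgfbi (0.67, SE 0.29). Tgfbi had 12.08, 11.37, 11.67 and 10.998 in Vehicle and 11.80, 12.27, 12.65 and 12.10 in Combo, with Vehicle replicate 4 the lowest. Whether these values come from tumour cells or from fibroblasts left after enrichment was not tested.

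As a check of the labelled cell type, 4 of 8 epithelial markers were tested, all keratins, and the 4 adhesion genes were below the filter. Krt7 had 6.49, 6.43, 6.57 and 6.57 in Vehicle and 7.29, 7.25, 6.89 and 6.78 in Combo (0.54, SE 0.20), without overlap. Of 8 markers of normal lung epithelium, 1 was tested. The enriched cells thus had keratin messages and few defining messages of lung epithelium or lymphocytes, with leukocyte and fibroblast messages present in both groups.

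The genes on either side of the comparison differed in kind and in level. Of the 281 genes higher in Combo without overlap, 35.9% were noncoding genes other than pseudogenes and 56.6% protein-coding, and 132 had predicted or unnamed gene symbols. Of the 240 lower genes the shares were 4.17% and 92.9%, and 18 had such symbols. Among all tested genes 14% were other noncoding and 78.9% protein-coding. The median span of the coding genes from start to end in the GENCODE M21 annotation was 41.3 kb for those higher, 18.3 kb for those lower and 24.2 kb for all tested. The median level in Vehicle was 6.96 for the 281 higher genes, 9.52 for the 240 lower ones and 8.74 for all tested. The filter can admit a weakly expressed gene through the group where it is high. With a stricter filter, genes higher at an unadjusted p under 0.05 fell from 341 to 211, and those lower from 301 to 257. The part of level in these contrasts was not tested.

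Across all tested coding genes the median difference went with span, from -0.0656 under 5 kb (64.5% lower) through -0.0485 at 5 to 20 kb, -0.0322 at 20 to 50 kb and -0.0081 at 50 to 100 kb to 0.0288 over 100 kb (42.2% lower). Other noncoding genes had a median of 0.0936, with 29.5% of 2205 lower, and pseudogenes of 0.0375. By library, the medians of other noncoding genes relative to the mean of the 8 libraries were -0.0870, -0.0982, 0.0593 and -0.0848 in Vehicle and 0.00701, 0.0697, 0.0528 and 0.0656 in Combo. Vehicle replicate 3 thus lay within the Combo range. The gene lists above hold mostly coding genes, and many of them are short, so their medians stand beside a background that was itself below 0. The part of gene span and type in the list medians was not tested.

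**Figure D4:**
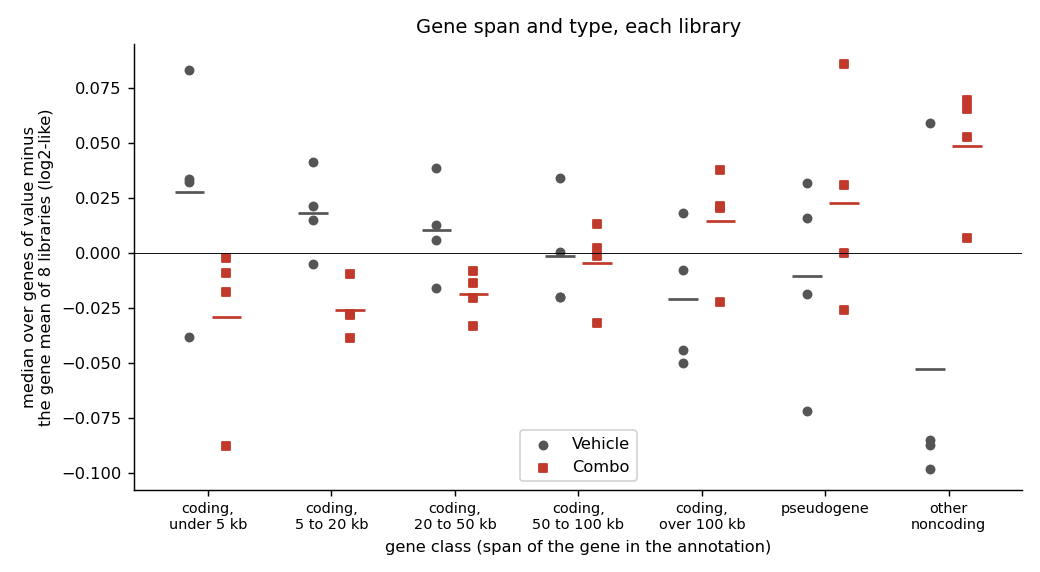
Each point is 1 library, as the median over the genes of a class of their value minus their mean over the 8 compared libraries (vertical axis, log2-like units), for coding genes by span and for pseudogenes and other noncoding genes. Short coding genes tend to lie below 0 in Combo and other noncoding genes above 0, with Vehicle replicate 3 (0.0593) among the Combo values for noncoding genes.

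The single compounds were set beside the combination. All 3 treatments are compared with the same 4 Vehicle libraries, so their differences are not independent of each other and are given side by side. At an unadjusted p under 0.05, TMP195 had 2.44% of genes higher and 2.44% lower than Vehicle, and MYCi975 1.51% higher and 1.51% lower. The median of MYC targets was -0.16 in Combo, -0.16 in TMP195 and -0.0852 in MYCi975, with 55, 54 and 46 of 59 genes lower. For ribosome biogenesis the medians were -0.13, -0.0643 and -0.0348, with 56, 53 and 40 of 63 lower. For mitochondrial DNA and RNA maintenance they were -0.12, -0.0675 and -0.0375. For the integrated stress response they were -0.21, -0.0891 and -0.16, and for glycolysis -0.18, 0.0444 and -0.21. For hypoxia response genes they were -0.12, 0.26 and -0.0890, so that TMP195 alone differed in sign from Combo. Leukocyte markers had -0.11, 0.75 and 0.13, and MHC class II genes -0.14, 0.55 and 0.00567. Other noncoding genes had 0.0936, 0.103 and 0.0827.

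Whether the combination departs from the sum of the single differences was tested as the interaction (Combo minus TMP195 minus MYCi975 plus Vehicle). No gene passed an adjusted p of 0.05 in limma, and at an unadjusted p under 0.05 there were 1.4% of genes above 0 and 1.6% below. The list medians of the interaction were 0.0391 for MYC targets, -0.0378 for ribosome biogenesis, 0.0745 for the integrated stress response, -0.28 for hypoxia response and -0.93 for all leukocytes. Ptprc had an interaction of -1.39 (SE 0.60), which did not pass, with TMP195 1.13 above Vehicle (SE 0.43). Zbtb20, of the genes named above, was higher in Combo by 0.64, in MYCi975 by 0.20 and differed by -0.03 in TMP195, and Rnf182 differed by 0.65, 0.28 and -0.32. Their interactions were 0.46 (SE 0.23) and 0.69 (SE 0.27), neither of which passed. Both genes were named by their Combo and Vehicle values, which also enter the interaction, so a positive sign was favoured in advance. They were picked here as the largest interactions among the named genes higher in Combo. Rnf182 lies near the lowest value in Vehicle, as given above.

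**Figure D5:**
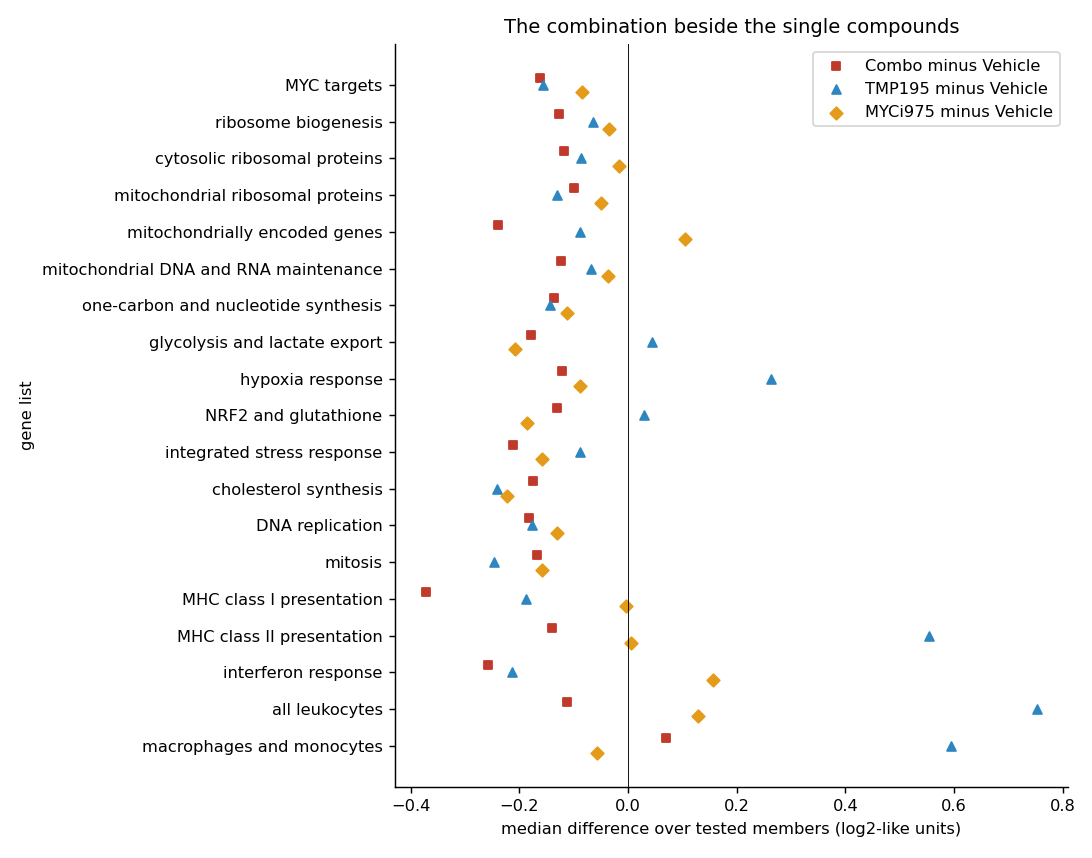
Points give the median difference from Vehicle over the tested members of a gene list (horizontal axis, log2-like units) for Combo (red squares), TMP195 (blue triangles) and MYCi975 (orange diamonds), all against the same 4 Vehicle libraries. The medians lie close together for MYC targets and apart for leukocyte markers, where TMP195 is at 0.75 and Combo at -0.11.

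With 4 libraries a group and no gene past the adjusted threshold, these differences describe the libraries and do not establish a change in any single gene. When the 8 libraries were fitted alone, 1 predicted gene, Gm15452, named after its value was seen, was called (1.32, limma adjusted p = 0.0222).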

How the data were processed

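RNA-seq was done on LLC1 tumour cells in 4 groups of 4 libraries, of which the Combo and Vehicle groups were compared. Per the labels' protocols, the library kit was for stranded total RNA. The authors deposited variance-stabilised values on a log2-like scale. Salmon and a human genome build (hg38) are named in the submitters' processing notes, although the gene identifiers are mouse. How the values were stabilised and which annotation was used is not given in the sources used here. Depth is unknown, so no interval that needs counts was computed.

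The values were fitted with limma 3.58.1 in R 4.3.3, with 1 mean for each of the 4 groups, empirical Bayes moderation and an intensity trend. P-values are two-sided, with Benjamini-Hochberg adjustment inside a comparison and a threshold of 0.05. The test was checked on simulated data. Symbols were found for 23150 genes (95.13%). Gene types and spans came from GENCODE M21, matched by identifier without version. Promoters came from the RefSeq table, matched by symbol, with only the first window of each symbol kept. A comparison over all tested coding genes was void because 78.2% of them matched.

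Genes were named by a rule: Myc, Max, the class IIa HDACs and Ptprc, then the 10 genes in each direction with the smallest p whose groups do not overlap, without predicted or unnamed genes, and up to 4 members of each list by p. In each direction 1 gene that the rule chose is not reported here. Mxd4, Krt7, mt-Nd6, mt-Nd3, Nr4a1, Nr4a2, Mef2a, Mef2c and the genes named beside their promoters were added after their values were seen. The members and gene lists were chosen with earlier results of these data known, and lists were given no test. The alternatives were filters, moderation settings, quantile normalisation, median centring, a replicate block, a leukocyte covariate, the 8 libraries alone, and leaving out libraries.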

Additional observations from a re-analysis of the deposited data

Results flagged for a closer look

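A library stood apart from the other 3 of its group by the Dixon criterion in 13 of 250 gene or list values examined, where chance alone flags about 5%. Vehicle replicate 4 stood apart in Max (10.4, against 10.69 to 10.72 in the others), Ksr2 (7.279), Mthfd1l (12.46) and the mean of extracellular matrix genes (10.63, against 10.84 to 10.86). Vehicle replicate 2 stood apart in Cdc25a (9.947) and Shmt2 (12.21, against 11.49 to 11.56). Vehicle replicate 3 stood apart in the means of respiratory complexes II and III (9.913), fatty acid oxidation (9.499) and NF-kB and inflammatory cytokines (9.516), being the lowest each time. In Combo, replicate 1 stood apart in Wdr7 (9.379, against 9.64 to 9.658) and in the mean of ribosome biogenesis (10.63, against 10.45 to 10.48), both toward Vehicle. Combo replicate 2 stood apart in Mef2a (11.998) and Combo replicate 3 in Mthfd1l (11.15).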

How the results depend on the processing

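No gene was called by limma under 17 of 18 alternatives; with the Combo and Vehicle libraries alone 1.0 gene was. Genes at an unadjusted p under 0.05 numbered 1062 with no filter, with 630 higher, and 211 were higher with a stricter filter (12074 genes). Those lower numbered 193 with median centring, 464 with the replicate block and 196 to 436 when 1 library was left out, the fewest without Combo replicate 3. Of 42 list medians 29 kept their sign under every alternative. When 1 library was left out the median ran from -0.0891 to 0.0301 for the BCL2 family, from -0.00233 to 0.249 for endothelial cells and from 0.167 to 0.441 for fibroblasts, and for dendritic cells it was -0.163 without the libraries numbered 4. The sign turned in 7 of 83 genes. Max was at 0.0449 with quantile normalisation, 0.0215 with median centring and -0.0843 to 0.0531 with 1 library left out. Hdac7 was at 0.00721 with quantile normalisation and -0.101 to 0.0120 with 1 left out, Hdac5 ran from -0.135 to 0.0714 and Ptprc from -0.443 to 0.0162. Cdk4 was at 0.00418 with quantile normalisation and -0.189 to 0.0853 with 1 left out. mt-Nd6 ran from -0.0863 to 1.01 and mt-Nd3 from -0.366 to 0.301, and without the libraries numbered 4 they were at -0.0923 and -0.458. The causes were not tested.

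The labels do not pair libraries by number, and the rule that all same-numbered Combo and Vehicle libraries correlate over 0.1 was not met: their deviations correlated at 0.202, 0.0611, -0.0749 and 0.172. Structure by number was nevertheless present. Over the 4 groups, pairs numbered 1 correlated at 0.202 to 0.428 and pairs numbered 4 at 0.172 to 0.387. Pairs numbered 2 ran from -0.109 to 0.244 and pairs numbered 3 from -0.24 to 0.116. Differently numbered libraries were compared for Combo and Vehicle alone, where they correlated at 0.128 or less. Of the 8 Combo and Vehicle libraries, 5 correlated best with their own number. The replicate block gave 878 of 15715 genes at an unadjusted p under 0.05, against 642 in the main fit, which leaves the numbers out, and called none. At the median standard error the 95% interval of a difference reaches 0.332 on either side, less for genes with smaller errors, and no depth is known.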
